A study of Danio rerio with 3 samples.

Results

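*lin-28b* morphants were set directly against *lin-28a* morphants, with 1 array on each side. The 2 arrays labelled with these morpholinos were taken from the 3 of the data set, and all 218 zebrafish miRNA probes on them were read. *lin-28b* MO is an antisense morpholino against a splice donor of *lin-28b* in wild-type AB zebrafish embryos, and *lin-28a* MO is the same kind of reagent against *lin-28a*. The remaining array holds embryos that received the control MO. Every embryo was collected at 5 hours post-fertilization (hpf), and total RNA of whole embryos was pooled within each condition, the number of embryos not being given in the sources used here. The miRCURY LNA array carries locked nucleic acid probes for mature miRNAs and reads 2 dyes. Hy3 marked the embryo RNA and Hy5 marked a Universal Reference hybridised alongside, and the Hy3/Hy5 ratio places one against the other. The labels describe a blend of the samples in equal amounts, without naming the channel. The named probes are for miRNAs and spike controls only, and with neither morpholino's target mRNA measured, the degree of knockdown on either array was not checked here.

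Lin-28a and Lin-28b are related RNA-binding proteins, best known for binding precursors of let-7 and blocking their maturation. The let-7 family accumulates late in animal development and limits Lin-28 in return. In zebrafish the first abundant zygotic miRNAs belong to the miR-430 family, which is transcribed at the onset of zygotic transcription and promotes deadenylation and clearance of maternal mRNAs. The question put to these arrays was whether knockdown of *lin-28b* left other miRNAs in the early embryo than knockdown of *lin-28a*.

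Between the 2 morphants, the ratios of most miRNAs differed by less than 1.5-fold, though nearly all of their probes were dim. Each probe had 4 spots, the ratio of a probe was the mean of its spot ratios, and every log2 difference below is *lin-28b* MO over *lin-28a* MO. Of 215 miRNAs with a spot coefficient of variation (CV) below 50% on each array, 213 (99.1%) differed by less than 1.5-fold and 203 by at most 1.25-fold. Past 1.5-fold, 1 was lower (miR-17a*) and 1 was higher (miR-140*). Among 2058 unnamed probes read in the same way, 1.8% were lower and 0.826% higher past 1.5-fold. The count differed by how the reference dye was used. From Hy3 without it, 12 miRNAs passed 1.5-fold. With each array's Hy3 scaled on unnamed probes with a Hy3 over 100 on both arrays, 186 did so. That scaling added 0.89 to every log2 value. The median log2 difference over the 215 miRNAs was 0.06, with a 5th percentile of -0.22 and a 95th percentile of 0.28. Neither morphant had a second array, so differences are given without a test or a p-value. The SDs below are over the 4 spots of a probe on 1 array and are technical, so a difference larger than them has no replicate check. In RNA of whole embryos, fewer cells of a type and less miRNA per cell cannot be told apart.

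Few of these miRNAs gave a strong signal. In intensity units, the 218 probes had a median Hy3 of 15.5 in *lin-28b* morphants and 15.15 in *lin-28a* morphants. Signal depends on the probe, so it does not order miRNAs by amount. A mean Hy3 over 100 on at least 1 of these arrays is termed bright here, and 6 probes reached it, namely miR-17a*, miR-203a and the a, b, c and j members of miR-430. The other 212 were dim. Just inside that limit, miR-430a had a Hy3 of 103.5 in *lin-28b* morphants and 123 in *lin-28a* morphants, and just outside it let-7c had 61.5 and 92.4. The bright end of the *lin-28b* MO array was dimmer in both dyes. Over 46 unnamed probes with a Hy3 over 100 on both arrays, the median Hy3 was 178 in *lin-28b* morphants and 329.6 in *lin-28a* morphants, and the median Hy5 was 190.5 and 330. The 11 spike controls with 4 spots were dim, with a Hy3 of at most 43.1, and lay between -0.22 and 0.19 on the log2 scale, so they do not bear on the bright end.

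**Figure D1:**
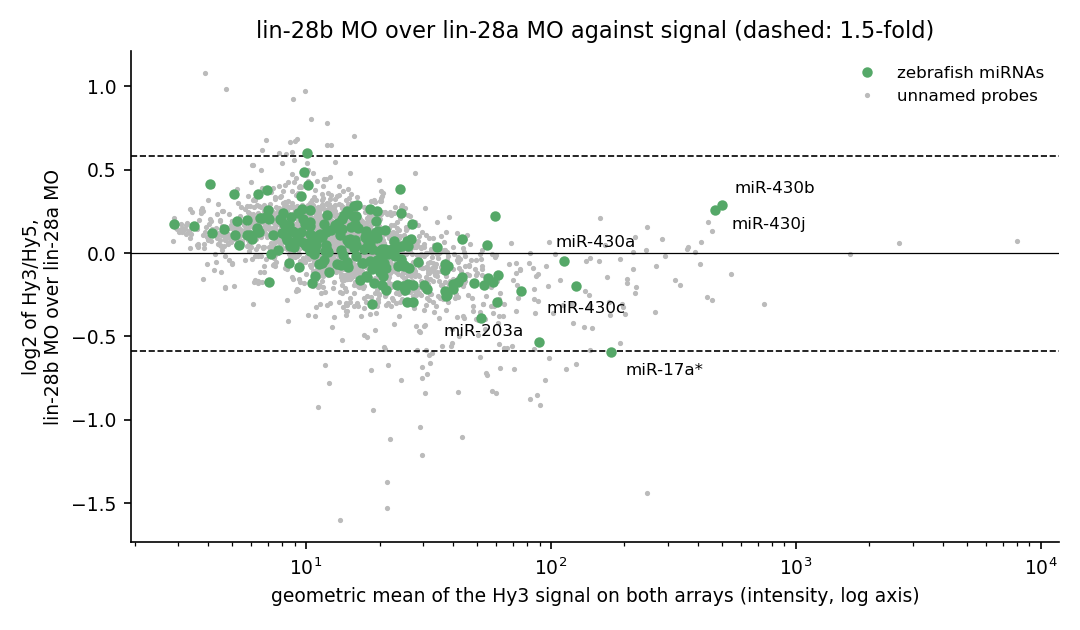
The log2 difference of the Hy3/Hy5 ratio, *lin-28b* MO over *lin-28a* MO (y axis), is plotted against the geometric mean of the Hy3 signal on both arrays (x axis, intensity, log scale), with 1 point for each zebrafish miRNA (green) or unnamed probe (grey) whose spot CV was under 50%. Most zebrafish miRNAs sit at low signal within the dashed 1.5-fold lines, miR-430b and miR-430j lie at the bright end at 0.29 and 0.26, and miR-17a* lies at the lower line.

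The bright miRNAs did not share a direction. miR-430b and miR-430j had higher ratios in *lin-28b* morphants with no overlap of spots, miR-430a and miR-430c overlapped, and miR-203a and miR-17a* had lower ratios with no overlap. Of the 6, 1 was lower past 1.5-fold and 0 were higher, beside 12.5% and 0% of 72 bright unnamed probes. All 4 spots were lower in *lin-28b* morphants for 2 of the 6, against 51.4% of the bright unnamed probes, and all 4 were higher for another 2, against 2.78%. The median log2 difference was -0.12 over the 6 miRNAs and -0.21 over those 72 probes. A probe could be bright through 1 array alone, which favours the array where its Hy3 was higher, so these shares and medians are not a neutral background. With a Hy3 over 100 required on both arrays, the median was -0.05 over 5 miRNAs and -0.09 over 46 unnamed probes.

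**Figure D2:**
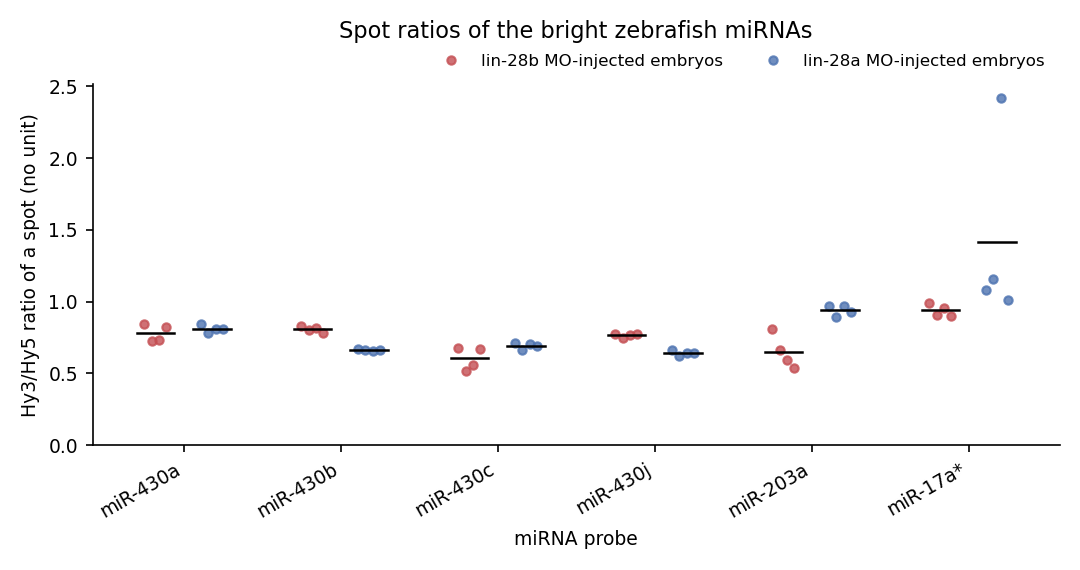
The Hy3/Hy5 ratio of each of the 4 spots (points, no unit) and their mean (black line) are shown for the 6 bright miRNAs, *lin-28b* MO-injected embryos in red and *lin-28a* MO-injected embryos in blue. The spots of miR-430b and miR-430j stand apart with *lin-28b* MO above, those of miR-203a stand apart with *lin-28b* MO below, and the mean of miR-17a* in *lin-28a* MO-injected embryos is drawn up by a single spot at 2.42.

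miR-430b gave the strongest Hy3 signal of the zebrafish probes on both arrays. Its spot ratios were 0.829, 0.804, 0.814 and 0.782 in *lin-28b* morphants and 0.668, 0.662, 0.658 and 0.660 in *lin-28a* morphants. Each spot of *lin-28b* morphants thus lay above each of *lin-28a* morphants. The means were 0.807 ± 0.019 and 0.662 ± 0.0042 (SD, n = 4 spots each), a log2 difference of 0.29 with a spot SD of 0.036. That is 1.22-fold, within the 1.5-fold limit. In embryos that received the control MO, the ratio was 1.29 ± 0.029.

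miR-430j, a further member of the family, stood alongside miR-430b. Its spots read 0.774, 0.749, 0.765 and 0.776 in *lin-28b* morphants, against 0.660, 0.621, 0.639 and 0.642 in *lin-28a* morphants. Again the spots did not overlap. The mean ratios were 0.766 ± 0.012 and 0.641 ± 0.016 (SD, n = 4 spots each), and the log2 difference was 0.26 with a spot SD of 0.043. The control MO array gave 1.35 ± 0.061. None of the 72 bright unnamed probes had a log2 difference above that of miR-430b or miR-430j, the 2 highest being 0.21 and 0.19.

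miR-430a was nearly level between the morphants. Spot ratios of 0.845, 0.728, 0.730 and 0.826 were read in *lin-28b* morphants and 0.843, 0.778, 0.807 and 0.808 in *lin-28a* morphants. The means were 0.782 ± 0.062 and 0.809 ± 0.026, and the log2 difference of -0.05 was smaller than its spot SD of 0.12. The spots overlapped, and those of *lin-28b* morphants were spread more widely. Its ratio in control MO-injected embryos was 1.32 ± 0.043.

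miR-430c leaned the other way. Its spots were 0.674, 0.515, 0.561 and 0.668 in *lin-28b* morphants, against 0.713, 0.665, 0.704 and 0.694 in *lin-28a* morphants, and 2 of the *lin-28b* MO spots fell within the range of the *lin-28a* MO spots. The means of 0.605 ± 0.079 and 0.694 ± 0.021 differed by -0.20 on the log2 scale, about the size of the spot SD of 0.20. The control MO array gave 1.18 ± 0.019. Among the bright unnamed probes, 37 of 72 had a log2 difference below that of miR-430c and 49 of 72 below that of miR-430a. Some of the 72 were bright on the *lin-28a* MO array alone.

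miR-430i, the remaining family member on the array, was dim, with a Hy3 of 19.9 in *lin-28b* morphants and 19.1 in *lin-28a* morphants. Its ratio was 1.34 ± 0.22 and 1.12 ± 0.18, a log2 difference of 0.25 with a spot SD of 0.32, so that the spots overlapped. Over all 5 members the median log2 difference was 0.25, and over the 4 bright ones it was 0.11. No member passed 1.5-fold in either direction.

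The log2 differences were not the same across the family. The log2 difference of miR-430b exceeded that of miR-430c by 0.48 (spot SD 0.20) and that of miR-430a by 0.33 (SD 0.13). For miR-430j the gaps were 0.46 (SD 0.20) to miR-430c and 0.31 (SD 0.13) to miR-430a. miR-430b and miR-430j differed by 0.03 (SD 0.06), and miR-430a and miR-430c by 0.15 (SD 0.23), both smaller than the spot SD. The pairs also differed in signal. By the geometric mean of Hy3 on both arrays, miR-430b and miR-430j lay over 200, where unnamed probes had a median log2 difference of -0.07. miR-430a and miR-430c lay between 100 and 200, where it was -0.30. The part of this trend in the gaps was not tested. Probes of related miRNAs may share signal, which was not tested. In the RefSeq annotation of GRCz12tu, 57 miR-430 genes lie on chromosome 4 (17 of miR-430a, 19 of miR-430b, 18 of miR-430c and 3 of miR-430i) and 1, of miR-430a, on chromosome 10. A probe for a mature miRNA reads all copies of its kind, and no gene there carries the name miR-430j.

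Both dyes entered these ratios, and they moved unequally. For miR-430b, the mean Hy3 was 487.5 in *lin-28b* morphants and 517 in *lin-28a* morphants, and the mean Hy5 was 603 and 780.5. Its log2 difference was -0.08 in Hy3 and -0.37 in Hy5, so both unscaled signals were lower in *lin-28b* morphants, and Hy5 by more. miR-430j had a Hy3 of 438 and 496.5 and a Hy5 of 571 and 775, or -0.18 in Hy3 and -0.44 in Hy5. Read from Hy3 without the reference, neither was higher in *lin-28b* morphants. For miR-430a both dyes were lower to a like degree, by -0.25 in Hy3 and -0.22 in Hy5, and for miR-430c by -0.65 and -0.47. The 72 bright unnamed probes had medians of -0.99 in Hy3 and -0.68 in Hy5. Of them, 5 had a Hy3 difference above that of miR-430b, 5 above miR-430j, 8 above miR-430a and 22 above miR-430c. Some of the 72 were bright on the *lin-28a* MO array alone, which favours a lower Hy3 difference, so these medians and counts are not a neutral background. Over the 46 unnamed probes with a Hy3 over 100 on both arrays, the median Hy3 was 178 in *lin-28b* morphants and 329.6 in *lin-28a* morphants. Their median Hy5 was 190.5 and 330. With Hy3 scaled on the unnamed probes over 100 on both arrays, miR-430b, miR-430j and miR-430a came out higher past 1.5-fold in *lin-28b* morphants. The part that the dimmer bright end of the *lin-28b* MO array played in either reading was not tested.

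**Figure D3:**
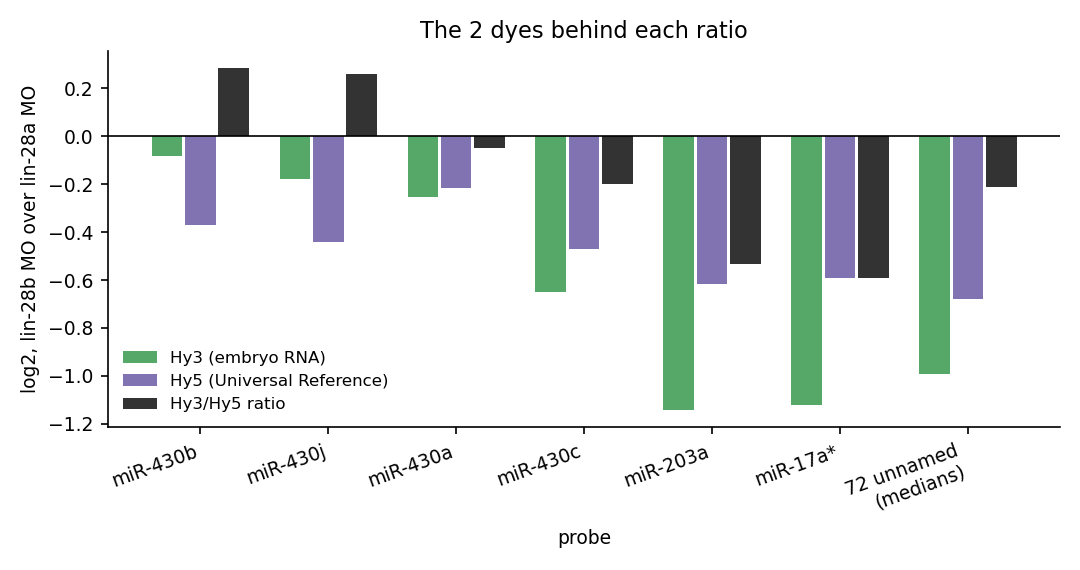
Bars give the log2 difference, *lin-28b* MO over *lin-28a* MO, of the mean Hy3 signal (green), the mean Hy5 signal (purple) and the Hy3/Hy5 ratio (black) for the 6 bright miRNAs. At the right are the medians of 72 unnamed probes, some of them bright on the *lin-28a* MO array alone. Both dyes lie below 0 for each of the 6, and the ratio lies above 0 for miR-430b and miR-430j, where Hy5 is further below 0 than Hy3.

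The let-7 family, the classical targets of Lin-28, was dim, and its ratios had no common direction between the morphants. All 10 let-7 probes had a Hy3 of at most 61.5 in *lin-28b* morphants and 92.4 in *lin-28a* morphants. The log2 difference was above 0 for 5 of them and below 0 for the other 5, with a median of 0.01, beside 0.06 over all 215 miRNAs. It ranged from -0.23 for let-7c to 0.17 for let-7e, and spots overlapped between the arrays for every member.

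let-7c, with the strongest Hy3 of the family, had spot ratios of 1.03, 0.767, 0.723 and 0.658 in *lin-28b* morphants and 1.10, 0.888, 0.806 and 0.934 in *lin-28a* morphants. The means of 0.795 ± 0.16 and 0.933 ± 0.13 (SD, n = 4 spots each) gave -0.23, below the spot SD of 0.34. let-7b followed, with 1.02, 0.869, 0.764 and 0.929 in *lin-28b* morphants and 1.13, 0.979, 0.897 and 0.921 in *lin-28a* morphants, a difference of -0.13 (SD 0.23). Position by position, the *lin-28b* MO spot was the lower at all 4 for let-7c and at all but the last for let-7b. Both dyes were lower in *lin-28b* morphants for these members. The log2 difference was -0.59 in Hy3 and -0.37 in Hy5 for let-7c, and -0.61 and -0.47 for let-7b. The remaining 8 members had a Hy3 between 10.7 and 29.4 on these arrays. let-7i had a ratio of 1.78 ± 0.23 in *lin-28b* morphants and 1.84 ± 0.12 in *lin-28a* morphants, and a log2 difference of -0.05. For let-7a, let-7d, let-7e, let-7f and let-7h the difference was 0.05, 0.15, 0.17, 0.08 and 0.06, and for let-7g and let-7j it was -0.04 and -0.14. Each of these was smaller than its own spot SD, the smallest of which was 0.15, for let-7g. The size of difference that could be detected at this signal was not estimated.

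**Figure D4:**
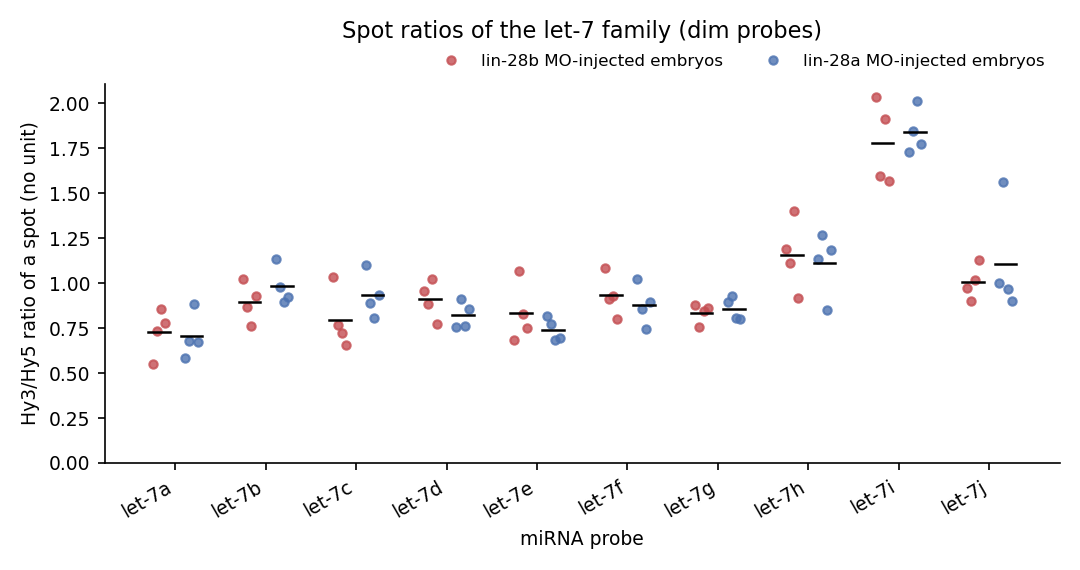
Spot ratios (points, Hy3/Hy5, no unit) and their means (black lines) are plotted for the 10 let-7 probes, *lin-28b* MO-injected embryos in red and *lin-28a* MO-injected embryos in blue. The 2 sets of points overlap for every member.

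miR-203a, a miRNA of the epidermis known in mice for limiting the proliferation of skin progenitors, was lower in *lin-28b* morphants. Its spots read 0.807, 0.665, 0.592 and 0.535 in *lin-28b* morphants, against 0.971, 0.892, 0.972 and 0.929 in *lin-28a* morphants. All 4 spots lay below the lowest of *lin-28a* morphants. The means were 0.650 ± 0.12 and 0.941 ± 0.038 (SD, n = 4 spots each), and 1.03 ± 0.040 in control MO-injected embryos. The log2 difference of -0.53, with a spot SD of 0.26, was 1.45-fold and so just short of the 1.5-fold limit. It passed the limit in 3 of 12 alternative settings. These were the median of the 4 spots in place of their mean (-0.60), spot position 1 left out (-0.64) and Hy3 without the reference (-1.14). It stayed within the limit in the others, among them lowess (-0.44), centring on bright unnamed probes (-0.45) and scaled Hy3 (-0.25). Its Hy3 was 60.5 in *lin-28b* morphants and 133.5 in *lin-28a* morphants, so the probe was bright on the *lin-28a* MO array alone. The log2 difference was -1.14 in Hy3 and -0.62 in Hy5, near the medians of the bright unnamed probes, and 13 of those 72 probes had a lower ratio difference. Some of the 72 likewise passed the Hy3 limit on the *lin-28a* MO array alone.

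The other miRNAs of skin and epithelium were dim. miR-200b had a ratio of 1.19 ± 0.15 in *lin-28b* morphants and 1.36 ± 0.55 in *lin-28a* morphants, a log2 difference of -0.20 with a spot SD of 0.59. The 7 members of this list had a median of 0.08, with 4 above 0 and 3 below, so that miR-203a stood alone among them in its spots not overlapping.

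miR-17a*, the passenger arm of the miR-17a hairpin of the miR-17-92 clusters, was the only bright miRNA whose ratio passed 1.5-fold, and a single spot carried it there. Its spot ratios were 0.987, 0.910, 0.954 and 0.902 in *lin-28b* morphants and 1.08, 1.15, 2.42 and 1.01 in *lin-28a* morphants. Of the *lin-28a* MO spots, 3 lay just above the highest of *lin-28b* morphants, and the other far above. The means were 0.938 ± 0.040 and 1.42 ± 0.67 (SD, n = 4 spots each), with 0.963 ± 0.027 in control MO-injected embryos. The log2 difference of -0.59 was about the size of its spot SD of 0.59. Without the spot position that read 2.42 it was -0.21, and by the median of the 4 spots -0.26, both within 1.5-fold.

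The main arm of the same hairpin, miR-17a, was dim, with a Hy3 of 14.8 in *lin-28b* morphants and 13.9 in *lin-28a* morphants. Its log2 difference was 0.23 with a spot SD of 0.54. In the RefSeq annotation of GRCz12tu, miR-17a genes lie on chromosome 1, beside mir18a, mir19a, mir19b, mir20a and mir92a-1, and on chromosome 9, beside mir18b and mir92a-2. The 13 main-arm probes of the miR-17-92 group, a set of miRNAs known in mammals for promoting cell proliferation, were all dim. Their median log2 difference was 0.17, with 9 above 0 and 4 below. miR-93 at -0.29 (SD 0.33) and miR-18c at -0.18 (SD 0.38) were the brightest of them, and their spots overlapped. miR-19b was the member with spots that did not overlap. It read 0.447, 0.432, 0.422 and 0.477 in *lin-28b* morphants, against 0.354, 0.305, 0.302 and 0.310 in *lin-28a* morphants, a log2 difference of 0.48 with a spot SD of 0.13. Its Hy3 was 9.79 in *lin-28b* morphants and 9.96 in *lin-28a* morphants and its Hy5 22.1 and 31.1. The arrays thus differed more in Hy5 than in Hy3, at signals near the low end of the array.

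Groups of miRNAs known from differentiated tissues were dim, apart from miR-203a. Of 12 lists of miRNAs, 2 held a bright member, the miR-430 family and the list of skin and epithelium. No list member within the CV limit passed 1.5-fold in either direction. The list medians lay between -0.08 and 0.25, against 0.06 over all 215 miRNAs. For 6 muscle miRNAs the median was -0.08, the brightest being miR-133a at -0.10 (SD 0.17) and miR-133b at -0.22 (SD 0.19). The 14 neural miRNAs within the CV limit had a median of 0.00, with miR-7a at -0.15 (SD 0.21) and miR-129 at 0.05 (SD 0.31). The 9 miRNAs of blood and endothelium had a median of 0.09, with 6 above 0 and 3 below. The 2 brightest were among those below, miR-223, a miRNA of myeloid cells, at -0.18 (SD 0.16) and miR-142a-3p at -0.18 (SD 0.36). The medians thus stayed close to 0 in either direction.

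For 8 miRNAs of liver, gut and pancreas the median was 0.03, with 7 above 0 and 1 below. The 1 below was the liver miRNA miR-122 at -0.29 (SD 0.36), and miR-375 was at 0.02 (SD 0.30). The 3 sensory organ miRNAs were at a median of 0.24. Of these, miR-182 and miR-183 were above 0, miR-183 at 0.24 (SD 0.24), and miR-96 was below, at -0.22 (SD 0.23). The 6 miRNAs encoded in the Hox clusters had a median of 0.05, with miR-196a at -0.14 (SD 0.12) and miR-10b at 0.24 (SD 0.22). The miR-125 group joined the miR-125 members, relatives of the *lin-4* miRNA of *C. elegans*, with miR-99 and miR-100, which belong to another family. The median of the 5 was -0.01, at miR-99. miR-125a was at -0.22 (SD 0.20), miR-125b at 0.07 (SD 0.36), miR-125c at -0.14 (SD 0.31) and miR-100 at 0.41 (SD 0.29). The 30 widely expressed miRNAs within the CV limit had a median of 0.10, with 21 above 0 and 9 below. Among those below, miR-30e was at -0.19 (SD 0.32).

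**Figure D5:**
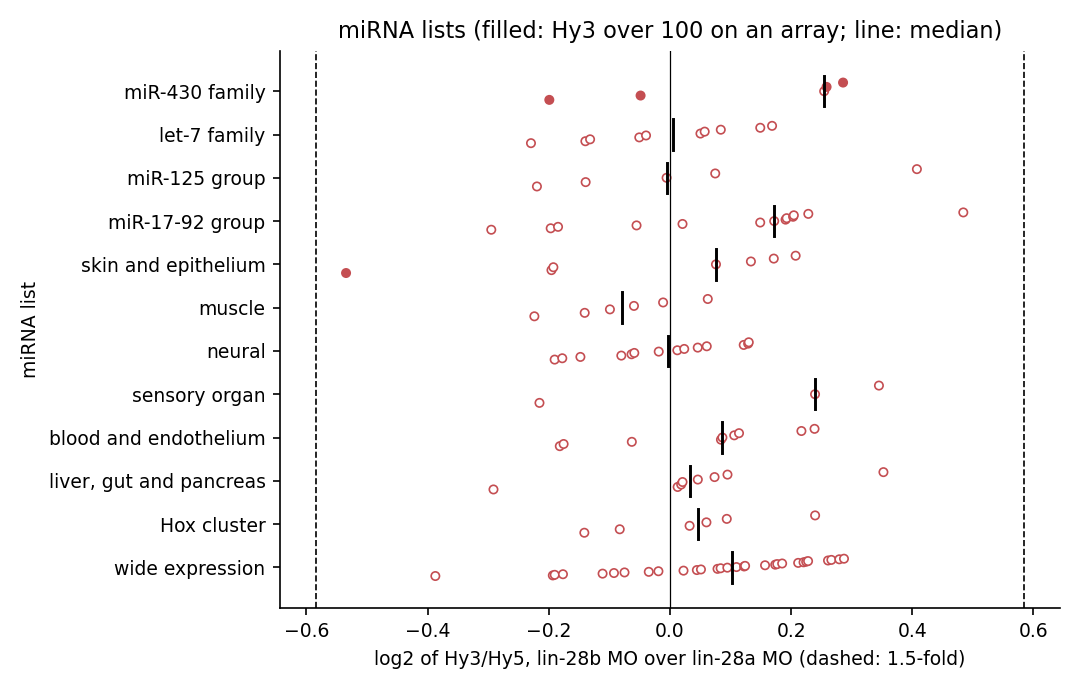
Each circle is the log2 difference of the Hy3/Hy5 ratio, *lin-28b* MO over *lin-28a* MO, for 1 member of the miRNA list named at the left, filled where Hy3 was over 100 on at least 1 array, with the list median as a black bar. Every circle lies between the dashed 1.5-fold lines, and the filled ones belong to the miR-430 family and, for miR-203a, to skin and epithelium.

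Spots that did not overlap were no more frequent among the miRNAs than among unnamed probes. Of all 215, 6 (2.79%) had all 4 spots lower and 10 (4.65%) all 4 higher in *lin-28b* morphants, against 4.52% and 7.24% of the unnamed probes. The other 199 overlapped. Among the dim ones, 4 were lower. miR-148 was the furthest, with spots of 0.634, 0.596, 0.574 and 0.522 in *lin-28b* morphants and 0.851, 0.793, 0.714 and 0.685 in *lin-28a* morphants, a log2 difference of -0.39 with a spot SD of 0.19. Its Hy3 was 33.4 in *lin-28b* morphants and 80.3 in *lin-28a* morphants, so its signal differed more than its ratio. miR-184, known from the lens and cornea of mice, was at -0.30 (SD 0.17), miR-190 at -0.26 (SD 0.14), and miR-15a, known in human cells for repressing cell cycle genes, at -0.19 (SD 0.13).

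The 8 dim miRNAs with all 4 spots higher were led by miR-19b. Among them, miR-130b had 4 equal spots on each array, with a Hy3 of 3.04 in *lin-28b* morphants and 2.76 in *lin-28a* morphants, beside lowest values of 3.04 and 2.51 among all zebrafish spots. Its Hy5 was 6.80 and 6.96 at every spot, the lowest zebrafish Hy5 on each array. With equal spots on each array, miR-130b could not overlap, so its place among the 8 carries no information on spread. Next to miR-19b came miR-740 at 0.35 (SD 0.26), miR-182, a miRNA of hair cells and photoreceptors, at 0.34 (SD 0.26), miR-130a at 0.27 (SD 0.14) and miR-723 at 0.26 (SD 0.15). With miR-19b, all 5 had a Hy3 of at most 10.2 on both arrays. miR-140*, from a hairpin whose main arm acts on Pdgfra in the zebrafish palate, was the only miRNA higher past 1.5-fold. Its spots read 0.335, 0.439, 0.562 and 0.578 in *lin-28b* morphants, against 0.382, 0.273, 0.338 and 0.268 in *lin-28a* morphants. The spots overlapped, and the log2 difference of 0.60 had a spot SD of 0.44 at a Hy3 of 9.32 and 10.9.

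The 3 miRNAs past the CV limit were miR-137, miR-140 and miR-152. The neural miR-137 had 1 spot with a Hy3 of 307 in *lin-28b* morphants, beside 5.58, 7.17 and 4.80 at its other spots, and between 4.35 and 6.09 in *lin-28a* morphants. It was set aside for that reason and enters no count made within the CV limit. Without that limit miR-137 would be higher past 1.5-fold in *lin-28b* morphants, through that 1 spot. miR-140 and miR-152 each had widely spread spots in *lin-28a* morphants, where the ratios were 1.09 ± 0.57 and 1.29 ± 0.69.

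The direction of a difference varied with the signal of the probe. Signal here is the geometric mean of a probe's Hy3 on both arrays. Among 148 zebrafish miRNAs with a signal of at most 20, the median log2 difference was 0.11 and 117 lay above 0. Between 20 and 50 the median of 52 miRNAs was -0.08, with 16 above 0, and between 50 and 100 the median of 10 was -0.18, with 2 above 0. The unnamed probes gave medians of 0.11, -0.07 and -0.28 in the same ranges. miR-203a, miR-148 and let-7c thus lay in a range where most probes had a lower ratio in *lin-28b* morphants. miR-430b and miR-430j, the only zebrafish miRNAs over 200, lay at 0.29 and 0.26 beside a median of -0.07 for 31 unnamed probes. Low values were often repeated. The most frequent Hy5 value was 11.8 in *lin-28b* morphants, at 54 of 872 zebrafish spots, and 12.7 in *lin-28a* morphants, at 109. The part these repeated values played in the differences of dim miRNAs was not tested.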

How the data were processed

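RNA from *lin-28b* MO, *lin-28a* MO and control MO-injected embryos at 5 hpf was hybridised to 3 miRCURY LNA arrays. The authors deposited the intensity of every spot in Hy3 and Hy5, 9984 spots per array, and a table of Hy3/Hy5 on a linear ratio scale, which covers 208 of the 218 zebrafish miRNAs. That table, with medians of 0.935 for *lin-28b* MO and 0.914 for *lin-28a* MO, equalled the mean spot ratios within 0.396%, so its direction and scale are those of the spots. How images were analysed and whether intensities were background-corrected or normalized before deposit was not given in the sources used here. No scaling was added. MeV is the software the methods name.

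Ratios were taken spot by spot, and a probe's value is the mean of its 4. The log2 of *lin-28b* MO over *lin-28a* MO was compared with a 1.5-fold limit, required a spot CV under 50% on both arrays, and was marked dim where Hy3 was at most 100 on both. A spot SD of a log2 difference joins both arrays' SDs of log2 spot ratios in quadrature. It describes single spots, does not pair them by position, and is wider than the technical error of a mean of 4. Precision is limited by 1 array per condition, so no test was run. The 2082 unnamed probes with 4 spots served as background. Alternatives covered the spot summary, each spot position left out, Hy3 without the reference, centring, lowess, and limits on signal and fold. Control MO values are given for context and entered the choice of 1 unnamed probe only.

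The miRNAs, lists and limits were chosen with earlier results of these data known. Named were every bright probe, all miR-430 and let-7 members, the 2 brightest members of each list, and the other arm of a bright hairpin. Of the dim probes with spots that did not overlap, the 5 furthest higher and all 4 lower were named. miR-140*, miR-100, miR-99, miR-125c, miR-130b, miR-137, miR-140 and miR-152 were added after their values were seen. Lists hold main arms only. Computation used Python 3.11.15, numpy 2.4.6, pandas 2.3.3, statsmodels 0.14.6 and matplotlib 3.10.9. It was tested on simulated data with known folds, the same Hy5 on both arrays and independent spot noise in Hy3. That checks the calculation only, not array or dye effects.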

Additional observations from a re-analysis of the deposited data

Results flagged for a closer look

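A probe with no name, number 47767 on the array, had a Hy3/Hy5 ratio of 0.627 ± 0.076 in *lin-28b* morphants and 1.70 ± 0.10 in *lin-28a* morphants (SD, n = 4 spots each), a log2 difference of -1.44 with a spot SD of 0.20. It was singled out among the bright unnamed probes because the ratio differed past 2-fold and its Hy3 on a morphant array exceeded that on the control MO array. Its Hy3 was 122 in *lin-28b* morphants, 500.25 in *lin-28a* morphants and 253.5 in control MO-injected embryos, and its ratio in the last was 0.730. No miRNA is assigned to it here.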

How the results depend on the processing

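No paired analysis was possible because each condition had 1 array. The count of 1 bright miRNA lower past 1.5-fold became 0 with mean Hy3 over mean Hy5, with centring on bright unnamed probes, with lowess and at 2-fold. It ranged from 0 to 1 with a spot position left out, and was 3 with unscaled Hy3 and 0 with scaled Hy3. With the median of the 4 spot ratios it stayed at 1, but for miR-203a at -0.60. With spot position 1 left out the 1 was again miR-203a, at -0.64. miR-17a* was then at -0.73, and at -0.67 with spot position 2 left out, but outside the CV limit both times. The count of 0 bright miRNAs higher became 3 with scaled Hy3. The 2 miRNAs past 1.5-fold among all 215 became 0 with mean Hy3 over mean Hy5 and at 2-fold, 1 with centring on zebrafish or on bright unnamed probes, 5 with lowess, 12 with unscaled and 186 with scaled Hy3, and ranged from 0 to 2 with a spot position left out. That count was 3 with no limit on the spot CV, and 3 with the median of the 4 spot ratios. The median of the bright miRNAs, -0.12, was -0.45 with unscaled and 0.44 with scaled Hy3. The median of the bright miR-430 probes, 0.11, was -0.22 with unscaled and 0.67 with scaled Hy3, 0.19 with centring on bright unnamed probes and 0.20 with lowess. The cause of each shift was not tested, apart from scaling, which adds 0.89 to every value, and centring, which adds -0.04 or 0.09. Scaling used the unnamed probes with a Hy3 over 100 on both arrays. The 0.09 of centring on bright unnamed probes goes with their median log2 difference of -0.09. miR-430a, at -0.05, was at 0.04 with lowess and with centring on bright unnamed probes. Dim probes, 212 of 218, limit what can be detected.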

Other observations

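Main and star arms of 24 hairpins were within the CV limit. Their log2 differences, *lin-28b* MO over *lin-28a* MO, had the same sign in 14 of the 24. Most zebrafish miRNAs within the CV limit lay above 0, so unrelated pairs would often share a sign too. How often they would was not estimated, so a link between the arms of a hairpin was not tested. miR-126, a miRNA of endothelium, and miR-126* were at 0.09 and 0.09, and miR-27c and miR-27c* at 0.23 and 0.38. miR-133b, of muscle, was at -0.22 and miR-133b* at 0.42. All of these were dim. These miRNAs were picked after their values were seen.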
